A study of Mus musculus with 60 samples.

Results

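A group of retinoid and aldehyde metabolism genes was followed cell by cell in single breast cancer cells recovered from mouse bone. Its members were Aldh1a1, Aldh1a2, Aldh1a3, Aldh3a1, Dhrs3, Crabp2, Rara, Rarb and Rarg, taken by symbol as the listed enzyme, carrier and receptor genes of the pathway, and they make up 9 of the 47729 mouse genes in the count table. PyMT-Bo1 is a C57BL6 mouse mammary tumor line that carried luciferase, H2B-mApple and Thy1.1 transgenes. The cells were stained with DiD, a membrane dye that is diluted at each division, and were delivered by intracardiac injection into wild-type C57BL6/J female mice of 8 to 10 weeks. At day 11 the femurs and tibias of 5 mice were pooled, and Thy1.1-enriched cells negative for CD45 and DAPI were sorted 1 per well, 48 for each group. The files hold the cells left after quality control, 32 DiD+ cells (label retaining, called dormant by the study) and 28 DiD- cells (proliferative). All cells therefore share the line, the dye, the transgenes, the wild-type host and the harvest. Which mouse a cell came from is not labelled. Each group therefore counts as 1 sample, no p-value was computed, and the intervals given here cover counting error only.

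Retinol, or vitamin A, is taken up from its plasma carrier Rbp4 through the receptor Stra6. Retinol dehydrogenases oxidize it to retinal, the aldehyde dehydrogenases Aldh1a1, Aldh1a2 and Aldh1a3 turn retinal into retinoic acid, and Dhrs3 works in the opposite direction by reducing retinal to retinol. Crabp2 carries retinoic acid to the nuclear receptors Rara, Rarb and Rarg, which bind DNA as partners of the Rxr receptors, and Cyp26 enzymes degrade it. Aldh3a1 oxidizes other aldehydes and is best known from the cornea, and aldehyde dehydrogenase activity is widely used to mark stem-like tumor cells.

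Aldh1a1 has a close copy on the same chromosome, Aldh1a7, which bears on whether the reads of these genes can be told apart. Over the coding sequence of the annotated transcripts, Aldh1a1 and Aldh1a7 were identical at 1377 of 1503 aligned bases (91.6%), and their longest shared run was 100 bases. None of the 1354 windows of 150 bases in the Aldh1a1 coding sequence occurred in Aldh1a7. By contrast, Aldh1a1 matched Aldh1a2 at 69.8%, Aldh1a3 at 69.2% and Aldh3a1 at 61.3% of aligned bases, and the 3 receptors matched each other at 73.3% to 77.9%. The qPCR assay that the study used for Aldh1a1 shows the difference between the copies, and it is printed 5′ to 3′ with the matching stretch of Aldh1a7 in the same orientation, capitals marking the bases that differ. The forward primer lay in coding exon sequence at chr19:20636787-20636807 (GRCm38, plus strand; exon 14 of the 16 in the annotated transcript with the longest coding sequence), the probe crossed the junction of exons 14 and 15, and the reverse primer crossed that of exons 15 and 16.
Aldh1a1 forward primer: catcactgtgtcatctgctct
Aldh1a7 at the forward primer: catcactgtgtcatctgctct
Aldh1a1 probe: agttAacccacaccaCcccagc
Aldh1a7 at the probe: agttCacccacaccaTcccagc
Aldh1a1 reverse primer: AcccagttctcTTccatttcc
Aldh1a7 at the reverse primer: GcccagttctcGCccatttcc
The forward primer had 0 mismatches to Aldh1a7. The probe had 2, A5C and C16T, and the reverse primer had 3, A1G, T12G and T13C, counted from 1 at the 5′ end of each oligo with the oligo's base first. The Dhrs3 assay is shown because it marks the exons behind the other enzyme gene of the study's assays. Its forward primer lay in exon 4 at chr4:144920038-144920055, and its probe and reverse primer lay in exon 5 at chr4:144923907-144923927 and chr4:144923951-144923969, all in coding sequence.
Dhrs3 forward primer: ctttcacaccagcaccga
Dhrs3 probe: tttcccaacctcttcccgcca
Dhrs3 reverse primer: cacagcatctaccgtcctc

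Rarb is the textbook case of a receptor gene that is itself switched on by retinoic acid, through a repeat in its promoter. Promoter windows (RefSeq, GRCm38.p6, 250 bases before to 50 after a start) were given for 6 of the 9 genes, 13 windows in all; Aldh1a3, Aldh3a1 and Crabp2 had none. Both strands were searched for direct repeats of a receptor hexamer (AGGTCA or its variant AGTTCA, or the forms GGGTCA and also GGTTCA) spaced by 1, 2 or 5 bases. The repeat was found in 1 of the 13 windows, that of Rarb, with a spacer of 5 bases and beginning at position -53 relative to the start, against 193 of 32851 windows of all genes (0.588%). It is printed from chr14:16575506-16575535 in the direction of the gene, which is on the minus strand, with the 2 hexamers in capitals.
Rarb promoter stretch: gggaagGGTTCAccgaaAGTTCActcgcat
A single hexamer was present in 5 of the 13 windows and in 43.7% of all windows. The repeat of Rarb was known beforehand, and both of its hexamers are among the forms searched, so this hit is a description and not a test. Some windows of Rara and of Dhrs3 overlap each other, so the 13 windows are not all separate. These letters describe the windows only.

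Sequencing depth was similar in both groups. Summed counts per cell ran from 2276789 to 7794219 in DiD+ cells (median 4653711) and from 2624405 to 6199108 in DiD- cells (median 4440161), and a gene without a single count in a group has a limit of 3 counts over the group, or 0.0205 CPM (counts per 1000000 counts) in DiD+ and 0.0251 CPM in DiD- wells. Krt8 was counted in all 60 cells and Krt18 in 30 DiD+ and 28 DiD- cells, whereas the epithelial markers Krt7, Krt19, Epcam and Cldn4 were at 0 and Cdh1 held 1 count. Luc2 was counted in 31 DiD+ and 28 DiD- cells and mApple in 28 and 24. Ptprc, the gene of CD45, was counted in 6 DiD+ cells and 1 DiD- cell, with at most 121 counts in a cell. The study reported no Ptprc expression in these cells. At least 7 of 13 macrophage or monocyte markers reached 10 counts in 6 DiD+ wells (cells 19, 21, 24, 30, 37 and 88) and in 1 DiD- well (cell 84), and the summed level of that list was 0 to 19202 CPM (median 44.5) in DiD+ and 0 to 1531 CPM (median 24.5) in DiD- cells. By the same rule over all 10 host cell marker lists, 7 DiD+ and 3 DiD- wells were marked. Values without these wells are given for the genes and lists that the results turn on, and the part these wells play was not tested.

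Aldh1a1, Dhrs3 and Aldh3a1 were more than 2-fold higher in DiD+ than in DiD- cells, and no gene of the 9 was 2-fold lower. For each group the counts of its cells were pooled and expressed as CPM, and 1 CPM was added to both levels before forming log2 ratios (DiD+ relative to DiD-), which understates the ratio of low genes. In all, 8 of the 9 genes reached 1 CPM in a group, Aldh1a2 being the exception. Past 2-fold were 3 of these 8 upward (37.5%) and 0 downward, set against 12.1% upward and 4.86% downward of the 12432 genes at that level, and the median log2 ratio was 0.67 for the 8 genes and 0.04 for all. Scaling each cell to its spike-ins moved the median of all genes to -0.34 and the split of all genes to 7.44% upward and 9.55% downward, while 3 and 0 of these 8 genes were again past 2-fold. Relative to that median Aldh1a1, Dhrs3 and Aldh3a1 were higher in DiD+ cells by 5.06, 3.17 and 2.42 on the log2 scale. Aldh1a1 and Dhrs3 were picked by the study from these same libraries, so their direction here is not independent evidence. By qRT-PCR on separately sorted cells, the study also reported both genes higher in DiD+ cells from bone. Its list of genes raised in DiD+ cells from lung names Aldh1a1 and not Dhrs3.

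**Figure D1:**
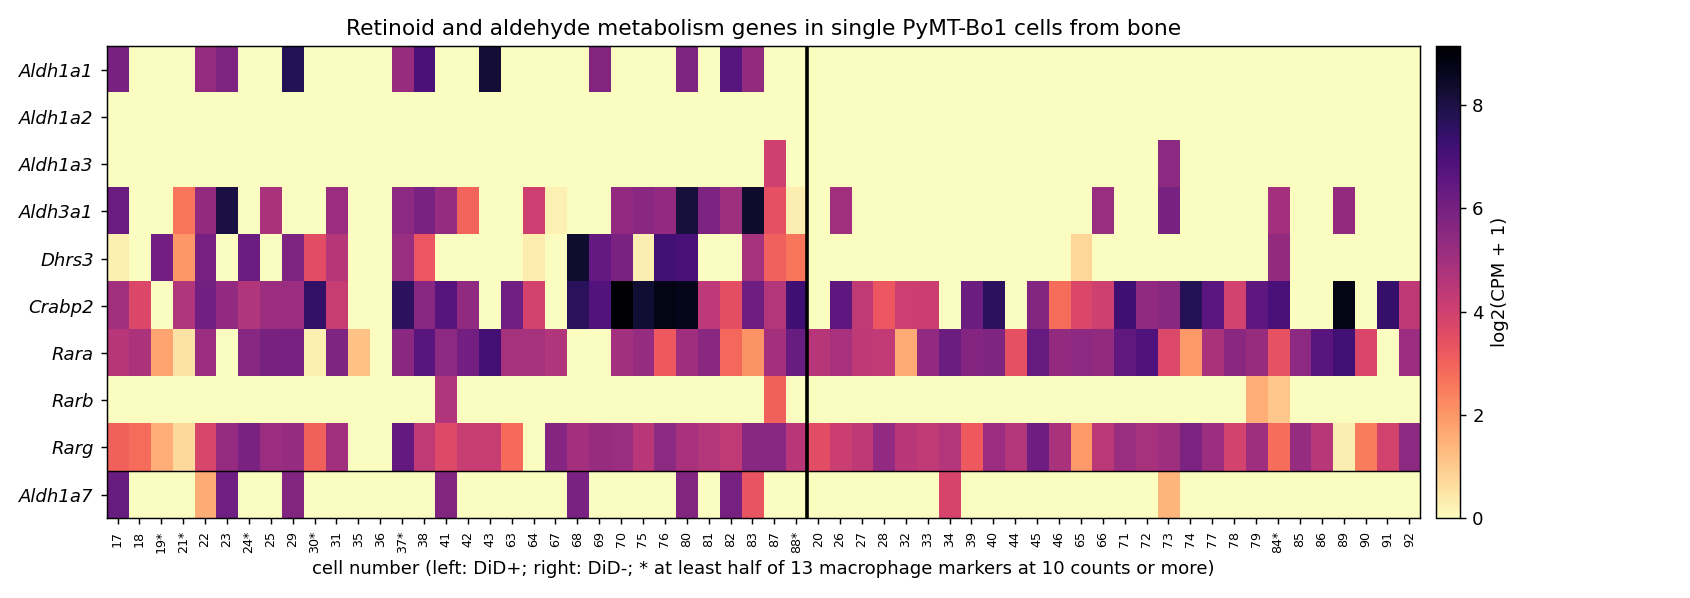
Level of each gene in each of the 60 cells as log2(CPM + 1), with genes in rows and cells in columns (32 DiD+ cells left of the line, 28 DiD- cells right of it; an asterisk marks the 7 wells with macrophage markers). Aldh1a1 is dark in 11 DiD+ cells and blank in all DiD- cells, whereas Crabp2, Rara and Rarg are filled in most cells of both groups.

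Aldh1a1 (chr19:20492715-20643465, plus strand), which makes retinoic acid from retinal, was counted in DiD+ cells only. In DiD+ cells its level ran from 0 to 297 CPM with a median of 0, and in DiD- cells it was 0 throughout. The 11 DiD+ cells with a count (34.4%, exact binomial interval 18.6% to 53.2%) held 178 to 1307 counts each, so each positive cell was far above a single read. No DiD- cell held a count (0 of 28, which allows a share of up to 10.7% by the limit of 3 and up to 12.3% by the exact binomial interval, a limit on cells with a count and not on cells that express the gene), and the groups overlapped only through the 21 DiD+ cells at 0. Cell 43 was highest with 1307 counts, followed by cell 29 with 853, cell 82 with 789 and cell 38 with 564. The summed levels were 34.4 CPM (exact Poisson interval 33.5 to 35.4) and 0 CPM. By the limit of 3 counts over the DiD- group the pooled reads differed at least 1371-fold, a bound on read counting only. It does not bound the difference between cells, since each positive cell held 178 counts or more, far above that limit of 3. With any 1 cell left out the log2 ratio stayed between 4.77, without cell 43, and 5.20. Only 1 of the 6 DiD+ wells with macrophage markers held an Aldh1a1 count (cell 37, 178 counts), and the log2 ratio was 5.41 without those wells. Positive and negative DiD+ cells were sequenced alike: the median total was 4624257 counts in Aldh1a1-positive and 4685171 in Aldh1a1-negative DiD+ cells. An annotated transcript on the opposite strand, C730002L08Rik (chr19:20410544-20552330), overlaps only the 5′ part of Aldh1a1, and the kit does not mark strand. Reads of both cannot be told apart in that overlap, which ends before the exons of the qPCR assay.

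Aldh1a2 and Aldh1a3, the other enzymes of the same step, gave little or no signal. Aldh1a2 (chr9:71215789-71296243) had 0 counts in all 60 cells, and no ratio can be given. Aldh1a3 (chr7:66390890-66427517) was at 0 in 58 cells and held 60 counts in DiD+ cell 87 and 135 counts in DiD- cell 73. Its summed levels were 0.411 and 1.13 CPM and its log2 ratio -0.59. Each of those cells alone decides the value, which was -1.09 without cell 87 and 0.50 without cell 73.

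Dhrs3 (chr4:144892827-144928209), which returns retinal to retinol, was found in most DiD+ cells and in few DiD- cells. Its level in DiD+ cells ran from 0 to 325 CPM with a median of 4.04, and in DiD- cells from 0 to 39.3 CPM with a median of 0. A count was present in 20 of 32 DiD+ cells (62.5%, 43.7% to 78.9%) and in 2 of 28 DiD- cells (7.14%, 0.877% to 23.5%). High DiD+ cells were cell 68 with 1200 counts, cell 80 with 470 and cell 76 with 455, and 3 of the 20 DiD+ cells held a single count. Of the 111 counts in DiD- cells, 108 lay in cell 84, the DiD- well with macrophage markers, and 3 lay in cell 65. The summed levels were 31.1 and 0.929 CPM, a 33.5-fold ratio and a log2 ratio of 4.06. Dhrs3 was counted in all 6 DiD+ wells with macrophage markers, which held 979 of its 4544 DiD+ counts (21.5%). Without all 7 macrophage marker wells 14 of 26 DiD+ and 1 of 27 DiD- cells were positive, the levels were 30.5 and 0.0257 CPM where the DiD- level rests on 3 counts, and the log2 ratio was 4.94, larger than with those wells. Spike-in scaling gave the smallest log2 ratio among the scalings tried, 2.82.

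Aldh3a1 (chr11:61207537-61218421), which oxidizes aldehydes other than retinal, was the most widely counted of the aldehyde dehydrogenases among the 9 genes. DiD+ cells ran from 0 to 329 CPM with a median of 12.7, and DiD- cells from 0 to 61.3 CPM with a median of 0. It was counted in 21 of 32 DiD+ cells (65.6%, 46.8% to 81.4%) and in 5 of 28 DiD- cells (17.9%, 6.06% to 36.9%). The groups overlapped, since the 5 positive DiD- cells (26, 66, 73, 84 and 89) held 83 to 202 counts, within the range of the positive DiD+ cells. In DiD+ cells 3 wells stood above all others, cell 83 with 1543 counts, cell 80 with 1031 and cell 23 with 994. The median of the positive cells was 39.3 CPM for DiD+ and 35.3 CPM for DiD- cells, so the groups differed in how many cells were positive and in the 3 highest cells. Summed levels of 42.2 and 6.85 CPM gave a 6.16-fold ratio and a log2 ratio of 2.46, between 2.10 and 2.75 with any 1 cell left out and 2.83 without the macrophage marker wells.

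**Figure D2:**
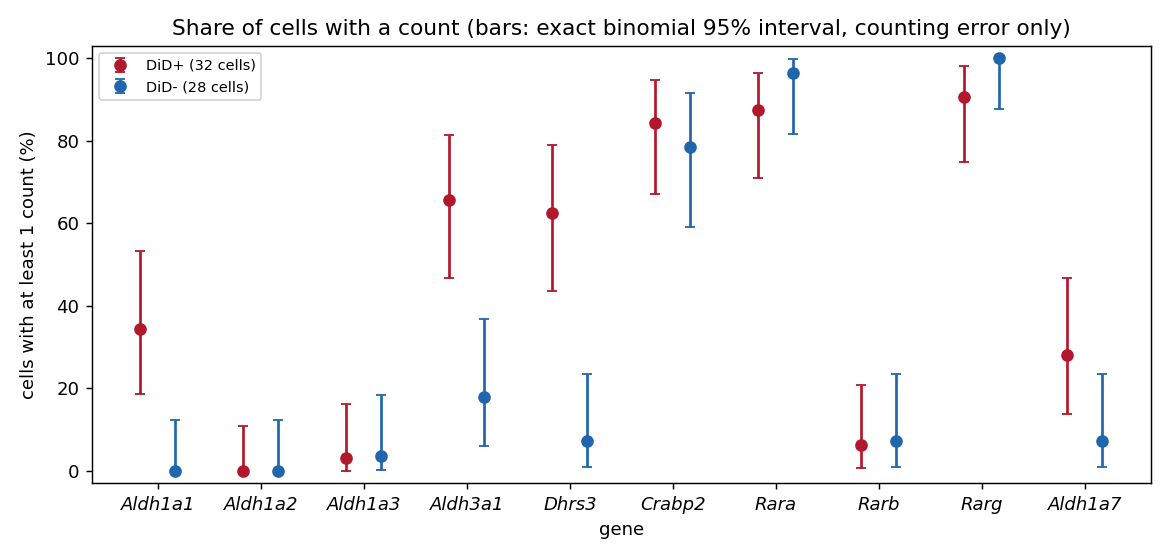
Share of cells with at least 1 count of each gene, with DiD+ cells in red (n = 32) and DiD- cells in blue (n = 28); bars are exact binomial 95% intervals, which cover the counting of cells only and do not compare the conditions. The shares are 34.4% and 0% for Aldh1a1, 65.6% and 17.9% for Aldh3a1 and 62.5% and 7.14% for Dhrs3.

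Crabp2 (chr3:87948666-87953376), which carries retinoic acid to its receptors, was common in both groups. Its level ran from 0 to 565 CPM in DiD+ cells with a median of 37.8, and from 0 to 439 CPM in DiD- cells with a median of 19.6. It was counted in 27 of 32 DiD+ cells (84.4%) and in 22 of 28 DiD- cells (78.6%), so the groups overlapped over almost their whole range. Cells 70 (2280 counts, DiD+) and 89 (2001 counts, DiD-) were highest in their groups. Summed levels were 91.8 and 66.5 CPM with a log2 ratio of 0.46, which was -0.04 after spike-in scaling and 0.30 above the median of all genes on that scale. Leaving out any 1 cell kept the value between 0.23, without cell 70, and 0.82, without cell 89.

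The receptors Rara and Rarg were counted in most cells of both groups, and Rarb in few. Rara (chr11:98927818-98974942) ran from 0 to 138 CPM in DiD+ cells (median 29.3) and from 0 to 141 CPM in DiD- cells (median 38.01), and was counted in 28 and 27 cells. Its summed levels of 32.3 and 44.1 CPM gave a log2 ratio of -0.44, short of 2-fold. The labels number the cells 17 to 46 and 63 to 92 and do not say what the numbers stand for. Within the first block the log2 ratio of Rara was 0.07 and within the second it was -1.05, so its direction was not shared by the blocks.

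Rarg (chr15:102234938-102257517) was the most evenly spread gene of the group. It ran from 0 to 85.1 CPM in DiD+ cells (median 21.4) and from 0.220 to 70.7 CPM in DiD- cells (median 22.6), with a count in 29 of 32 and in all 28 cells. Summed levels were 24.2 and 24.7 CPM, a log2 ratio of -0.03, and no cell left out moved it beyond -0.15 to 0.07. Within the blocks of cell numbers it was -0.33 and 0.31. Dhrs3, Aldh1a1 and Aldh3a1 kept their direction and 2-fold size in both blocks, at log2 ratios of 4.33 and 4.19, 5.44 and 4.58, and 2.93 and 2.47.

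Rarb (chr14:16430839-16819156, minus strand), the receptor whose promoter stretch is printed above, was counted in 2 cells of each group. Its DiD+ counts were 120 for cell 41 and 28 for cell 87, and its DiD- counts 9 for cell 79 and 3 for cell 84. The summed levels were 1.01 and 0.1004 CPM and the log2 ratio 0.87, which was 0.12 without cell 41 and was 1.07 without the macrophage marker wells. The gene overlaps Top2b on the opposite strand, which held 12882 DiD+ and 7185 DiD- counts, and without strand the Rarb reads in the overlap cannot be told from Top2b reads.

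**Figure D3:**
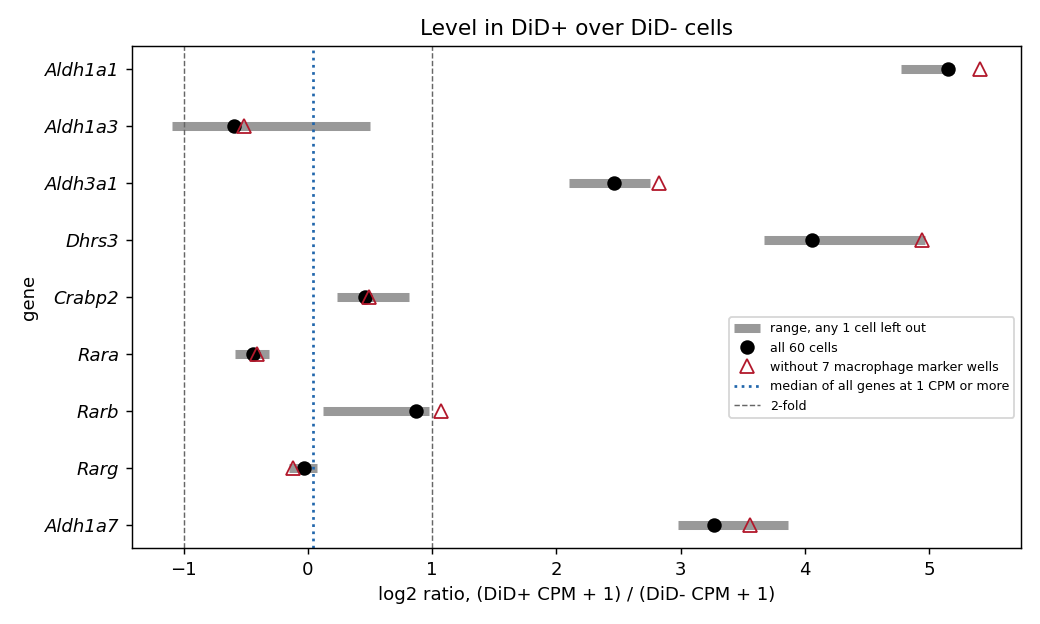
Log2 ratio of DiD+ over DiD- summed CPM (pseudocount 1 CPM) for the 8 genes at 1 CPM or more and for Aldh1a7. Points use all 60 cells, grey bars span the values with any 1 cell left out, triangles leave out the 7 macrophage marker wells and dashed lines mark 2-fold. Aldh1a1, Aldh3a1, Dhrs3 and Aldh1a7 lie beyond 2-fold in all of these settings.

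Levels of different genes were compared per kilobase of exon. In DiD+ cells Crabp2 was highest at 69.4 CPM per kb, followed by Aldh3a1 at 21.7, Dhrs3 at 10.6, Rara at 7.39, Aldh1a1 at 6.97, Rarg at 5.68, Rarb at 0.192 and Aldh1a3 at 0.0890 CPM per kb. In DiD- cells Crabp2 again led at 50.3 CPM per kb, but the receptors came next, Rara at 10.1 and Rarg at 5.80, ahead of Aldh3a1 at 3.53, Dhrs3 at 0.317, Aldh1a3 at 0.245 and Rarb at 0.0191 CPM per kb. In DiD- cells the counting intervals of Dhrs3 and Aldh1a3 overlapped (0.261 to 0.382 and 0.205 to 0.290 CPM per kb). In DiD+ cells those of Rara and Aldh1a1 came close without overlap (7.18 to 7.60 and 6.78 to 7.17 CPM per kb), while the spread between cells was far wider than these intervals for both genes.

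Aldh1a1, Aldh3a1 and Dhrs3, the 3 genes past 2-fold upward, were counted in partly different cells. Since they were higher in these same DiD+ cells, a higher joint share there follows from that and is a description only. At least 1 of Aldh1a1, Aldh3a1 and Dhrs3 was counted in 28 of 32 DiD+ cells (87.5%, 71.01% to 96.5%) and in 6 of 28 DiD- cells (21.4%, 8.30% to 40.95%). All 3 were counted in 6 DiD+ cells (17, 22, 37, 38, 80 and 83) and in 0 DiD- cells, and none in 4 DiD+ cells (18, 35, 36 and 63) and 22 DiD- cells. Without the macrophage marker wells 22 of 26 DiD+ and 5 of 27 DiD- cells held at least 1 of them. Aldh1a1 shared 8 cells with Aldh3a1 and 8 with Dhrs3 among its 11, and Aldh3a1 shared 14 cells with Dhrs3. These overlaps were not compared with those that the single shares alone would give.

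**Figure D4:**
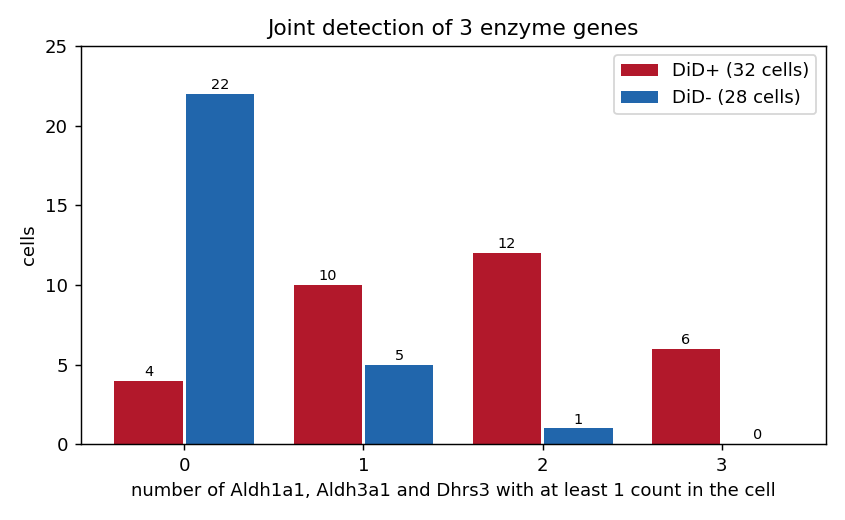
Number of cells (bar height) that held a count of 0, 1, 2 or 3 of the genes Aldh1a1, Aldh3a1 and Dhrs3, for 32 DiD+ cells in red and 28 DiD- cells in blue. Most DiD- cells, 22, held none, and most DiD+ cells held 1 or 2. The 3 genes are those past 2-fold upward in these same cells, so the difference between the groups is not a separate result.

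Thinning each cell to 2200000 counts left the shares of positive cells close to these values, with Aldh3a1 in 62.5% and 17.9%, Dhrs3 in 56.2% and 7.14% and Aldh1a1 in 34.4% and 0% of DiD+ and DiD- cells. Over all 9 genes a DiD+ cell held counts of 0 to 7 genes (median 4.5) and a DiD- cell 2 to 6 (median 3). Cell 36 was the only DiD+ cell in which none of the 9 genes was counted.

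Over the 32 DiD+ cells, the level of each gene was ranked against that of 8406 genes (10 CPM or more in either group, counts in 10 or more DiD+ cells), as a description of cells that share depth and library preparation. Among pairs of the 9 genes the highest Spearman rho was 0.54, for Crabp2 and Dhrs3 (0.66 over the 26 DiD+ cells without macrophage markers). The next highest were 0.39 for Aldh3a1 and Crabp2, 0.38 for Dhrs3 and Rarg and 0.36 for Crabp2 and Rarg. The genes most like Aldh1a1 were Pdgfc (rho 0.66), a growth factor, Mlxip (0.66) and Cpe (0.62). Those most like Aldh3a1 were Cep19 (0.66), Chfr (0.66) and Dstyk (0.63). Those most like Dhrs3 were Dtx3l (0.69) and Irf7 (0.65), both known from the interferon response, and the vessel growth factor Angpt1 (0.66). Over the 26 DiD+ cells without macrophage markers these were 0.73 for Dtx3l, 0.63 for Irf7 and 0.76 for Angpt1. Myl12b (0.69), Higd2a (0.64) and Rhod (0.63) came closest to Crabp2. Taf1b (0.65), Snhg17 (0.64) and Dalrd3 (0.61) came closest to Rara, and Rin2 (0.73), Plxnb2 (0.66) and Epb41l1 (0.61) to Rarg. Over the 26 cells the rho of the 18 pairs with these closest genes ranged from 0.56 to 0.77. The closest genes were picked as the highest of 8406 over the 32 cells. The highest rho to be met among 8406 unrelated genes was not worked out, so these values do not show a link between genes. The 26 cells are part of the 32 that gave the pick, so their values are no separate check.

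Aldh1a7 (chr19:20692953-20727562), the copy of Aldh1a1, was also higher in DiD+ cells. It was counted in 9 DiD+ cells, with up to 488 counts in cell 82, and in 2 DiD- cells (64 counts in cell 34 and 5 in cell 73). Of the 9 positive DiD+ cells 7 also held Aldh1a1, whereas cells 41 and 68 held 263 and 214 Aldh1a7 counts without an Aldh1a1 count. Summed levels were 14.2 and 0.577 CPM and the log2 ratio was 3.26. Every deposited value of both genes was a whole number, so no fractional assignment of reads between them is visible.

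Of the 17 other aldehyde dehydrogenases 13 reached 1 CPM. Past 2-fold were 2 upward (15.4%, against 12.1% of all genes) and 0 downward (against 4.86%), with a median log2 ratio of 0.36. These were Aldh1a7 and the folate enzyme Aldh1l1 (2.74 and 0.812 CPM, log2 ratio 1.04), whose log2 ratio was 0.15 without cell 88, a macrophage marker well, and 0.40 without all 7 such wells. Aldh2, the mitochondrial enzyme that clears acetaldehyde, stood at 225 and 166 CPM with a log2 ratio of 0.44. Without Aldh1a7, 1 of 12 was past 2-fold upward (8.33%, against 12.1% of all genes).

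Among 56 other retinoid genes 37 reached 1 CPM, 11 of them past 2-fold upward (29.7%, against 12.1% of all genes) and 2 downward (5.41%, against 4.86%), with a median log2 ratio of 0.39. Spike-in scaling left 35 genes at 1 CPM, 3 upward (Stra6, Rdh13 and Crabp1; 8.57%, against 7.44% of all genes) and 3 downward (8.57%, against 9.55%), so the upward count depends on the scaling. Without the macrophage marker wells 11 were upward (29.7%, against 10.4% of all genes) and 3 downward (8.11%, against 5.71%). With any 1 cell left out, 4 of the 11 (Stra6, Rdh13, Nr2f1 and Btg2) and 1 of the 2 (Dhrs9) kept their side.

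**Figure D5:**
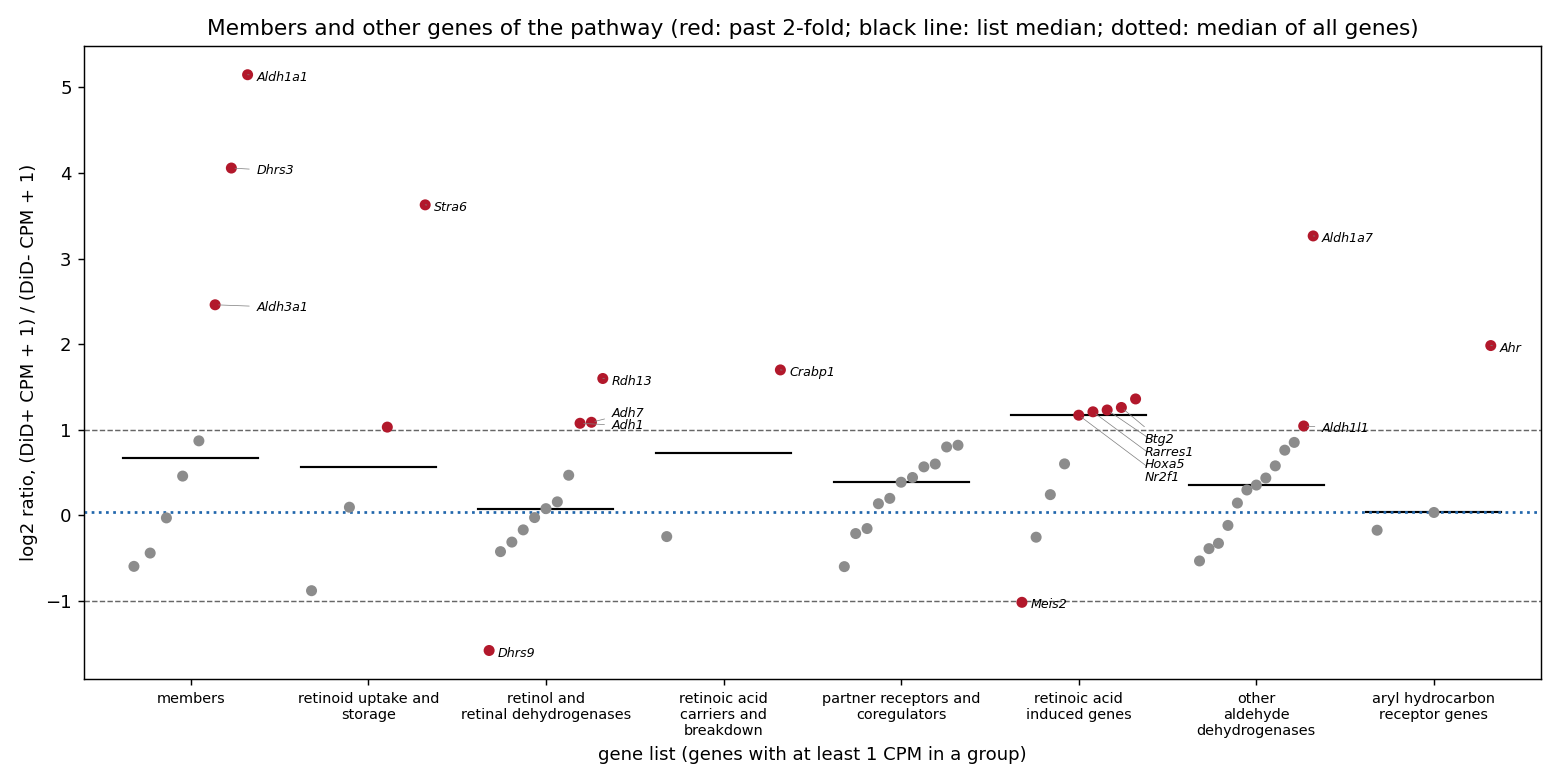
Log2 ratio of DiD+ over DiD- summed CPM (pseudocount 1 CPM) for every gene at 1 CPM or more in each list, in red where past 2-fold (names are given for most of these); black lines are list medians, the dotted line is the median of all genes and dashed lines mark 2-fold. Aldh1a1, Dhrs3 and Stra6 lie highest, and the partner receptors and coregulators all lie within 2-fold in these values.

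For uptake and storage, 4 of 8 genes reached 1 CPM. Past 2-fold were 2 upward (50%, against 12.1% of all genes) and 0 downward (against 4.86%). With spike-in scaling 1 was upward (25%, against 7.44% of all genes) and 1 downward (25%, against 9.55%). Without the macrophage marker wells 2 were upward (50%, against 10.4% of all genes) and 1 downward (25%, against 5.71%). Stra6, the retinol receptor, was at 11.4 CPM against 0 in DiD- cells, at least 452-fold higher, but in only 3 DiD+ cells (1137 counts for cell 41, 494 for cell 29, 28 for cell 68). Without cell 41 the level was 3.70 CPM and the bound at least 147-fold, and the log2 ratio went from 3.63 to 2.23. Both bounds cover read counting only and do not bound the difference between cells. The shares of positive cells, 3 of 32 and 0 of 28, had overlapping exact binomial intervals (1.98% to 25.02% and 0% to 12.3%). Rbp4 and Lrat, which forms retinyl esters for storage, had 0 counts.

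For the other retinol and retinal dehydrogenases, 11 of 17 genes reached 1 CPM. Past 2-fold were 3 upward (27.3%, against 12.1% of all genes) and 1 downward (9.09%, against 4.86%). Rdh13 stood at 3.63 and 0.527 CPM (log2 ratio 1.60), Adh7 at 56.2 and 25.9 CPM (1.09, and 0.70 without cell 22), and Adh1 was counted in cell 22 alone with 162 counts (1.08). Cell by cell, Rdh13 was counted in 8 of 32 DiD+ and in 9 of 28 DiD- cells. Adh7 was counted in 16 of 32 and 16 of 28, and its cell median was lower for DiD+ (6.27 against 16.6 CPM). Rdh13 and Adh7 were thus upward in summed counts but not in the share of positive cells. Dhrs9, a further retinol dehydrogenase, was lower in DiD+ cells at 21.2 and 65.2 CPM, a log2 ratio of -1.58. Rdh10, the main enzyme for retinal formation in the embryo, was at 32.0 and 43.3 CPM (-0.42).

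Of the carriers and breakdown enzymes 2 of 5 reached 1 CPM. Crabp1, the sister gene of Crabp2, was at 24.4 and 6.83 CPM (log2 ratio 1.70), but 3485 of its 3569 DiD+ counts lay in cell 41, without which the log2 ratio was -2.29. The retinoic acid hydroxylases were near 0, with 37 counts of Cyp26a1 (36 of them in cell 87), 7 of Cyp26b1 and 4 of Cyp26c1 in DiD+ cells and 0 in DiD- cells. Of 12 partner receptors and coregulators 11 reached 1 CPM and 0 were past 2-fold in either direction, against 12.1% upward and 4.86% downward of all genes. Without the macrophage marker wells 1 was upward, Ep300 (9.09%, against 10.4% of all genes). Rxrb was at 31.7 and 35.4 CPM, Rxra at 6.16 and 7.29 CPM, and Rxrg at 0.

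Of 14 genes known to be induced by retinoic acid 9 reached 1 CPM, 5 of them past 2-fold upward (55.6%, against 12.1% of all genes) and 1 downward (11.1%, against 4.86%), with a median log2 ratio of 1.17. With spike-in scaling 8 reached 1 CPM, 0 were past 2-fold upward (against 7.44% of all genes) and 1, Meis2, downward (12.5%, against 9.55%). Each upward call here was thus lost under that scaling. The list median was then 0.11, where that of all genes was -0.34. Without the macrophage marker wells 4 were upward (44.4%, against 10.4% of all genes) and 1 downward (11.1%, against 5.71%). Btg2, an antiproliferative gene, was at 166 and 68.8 CPM (log2 ratio 1.26) and the orphan receptor gene Nr2f1 at 19.98 and 8.32 CPM (1.17), and on the CPM scale both remained past 2-fold with any 1 cell left out. The study named Nr2f1 from these libraries. Hoxa5 was at 8.11 and 2.94 CPM (1.21, and 0.99 without cell 67), and Rarres1 was counted in cell 22 alone (197 counts, 1.23). The homeobox gene Meis2 was lower in DiD+ cells at 5.07 and 11.3 CPM (-1.01, and -0.71 without cell 26).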

How the data were processed

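Single PyMT-Bo1 cells from the pooled bones of 5 mice were the samples, and GEO's DiD intensity label gave the group of each. Per the labels, STAR placed the reads on GRCm38/mm10 with ERCC and transgene sequences added, and RSEM quantified them; tool versions and the annotation release are not given in the sources used here. The authors deposited estimated counts from RSEM, not normalized (1 row per gene, 1 column per cell, 47825 rows, of which 47729 are mouse genes, 92 are spike-ins and 4 are transgenes), and 96.6% of the values were whole. The authors also deposited a signal table made with BASiCS, in which each rounded count is divided by 1 factor per cell, and it was used only as an alternative scaling. The BASiCS test was not run again. All 60 columns were matched to cells by title, and 0 were left unused.

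Estimated counts were rounded, totals covered mouse genes only, and the cells of each group were pooled and expressed as CPM. Log2 ratios took a pseudocount of 1 CPM, lists counted genes at 1 CPM or more in either group, and 2-fold on that scale was the size named. Exact Poisson and Clopper-Pearson intervals are at 95%; amplified reads carry no molecular identifiers, so the intervals and the limit of 3 counts cover counting error only. No doublet caller was run, and no well was left out of the main values. The labels do not say whether cells of a group came from different mice. Alternatives were the factors of edgeR 4.0.16 and DESeq2 1.42.0 on the group sums, spike-in scaling, means over cells, other pseudocounts and minimum levels, thinning to 2200000 counts, wells without host markers, blocks of cell numbers and leaving out each cell. Spearman rho and the counts of the single lists without macrophage marker wells, those counts under spike-in scaling, and Stra6 without cell 41 were added after seeing the data. The calculation was tested on simulated Poisson counts with known changes. These lack the wide spread between cells seen here, so that test covers the calculation and not how the 2-fold call behaves in such cells. Python 3.11.15, pandas, numpy, scipy and Biopython were used, with gene models of GENCODE M21 (GRCm38) and promoter windows of RefSeq; 47224 gene identifiers matched a symbol.

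The 9 genes and all lists were chosen with earlier results of these data known. Genes named in the text were the 9 genes, list genes past 2-fold at 1 CPM or more, a set named whatever its values (Aldh1a7, Rxra, Rxrb, Rxrg, Crabp1, Cyp26a1, Cyp26b1, Cyp26c1, Rbp4, Rdh10, Stra6 and Lrat) and, for genes counted in at least 10 DiD+ cells, the 3 genes with the highest Spearman rho over DiD+ cells on log2(CPM + 1). Aldh2, Ep300, Rarres2 and the aryl hydrocarbon receptor genes other than Ahr fall outside this rule and were named after their values were seen. Some genes counted in the lists are not reported here by name.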

Additional observations from a re-analysis of the deposited data

How the results depend on the processing

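The number of the 9 genes past 2-fold upward was 3 with each of the 60 cells left out and 3 or 4 under every other setting, Rarb being the fourth where there were 4. None was past 2-fold downward in the main values, and 1 was with the mean of the BASiCS values and with a pseudocount of 0.1 CPM (Aldh1a3) and in cells 63 to 92 (Rara); leaving out single cells gave 0 to 1. For the other retinoid genes the upward count of 11 was 3 with spike-in scaling, 4 with a pseudocount of 10 CPM and 6 with a minimum of 10 CPM (8 to 12 with single cells left out), and the downward count of 2 was 1 with the mean of cell CPM and with a pseudocount of 10 CPM (1 to 3). For the other aldehyde dehydrogenases the upward count of 2 was 1 with spike-in scaling, a pseudocount of 10 CPM, a minimum of 10 CPM, without macrophage marker wells and without host marker wells, and 4 in cells 63 to 92 (1 to 3 with single cells left out). Their downward count of 0 was 1 with spike-in scaling. The upward share of all genes, 12.1% in the main values, moved too. It was 7.44% with spike-in scaling, 2.36% with a pseudocount of 10 CPM and 6.38% with a minimum of 10 CPM. It was 10.4% without macrophage marker wells, 10.5% without host marker wells and 13.2% in cells 63 to 92. The downward share, 4.86% in the main values, was 9.55%, 4.73% and 0.652% with spike-in scaling, mean of cell CPM and a pseudocount of 10 CPM. The cause of these changes in the counts was not tested, except that a higher minimum leaves fewer genes. With 0.1 or 10 CPM as pseudocount the log2 ratio of Aldh1a1 was 8.43 or 2.15, since its DiD- level is 0. Aldh1a1, Dhrs3, Aldh3a1 and Aldh1a7 kept their direction under every setting run, whereas Crabp1 went from 1.70 to -2.29 without cell 41. No paired analysis was possible because the cells carry no number shared between groups. With 1 sample per group, differences between mice and between cells cannot be told apart, and levels near 0.0251 CPM cannot be compared.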

Other observations

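Aldh3a1 is also known as a gene of the aryl hydrocarbon receptor response, so the genes of that response were set beside it. Ahr, the receptor itself, was at 12.1 CPM in DiD+ cells (18 of 32 with a count) and 2.301 CPM in DiD- cells (9 of 28), a log2 ratio of 1.98 (1.76 to 2.46 on omitting single cells, 2.26 without the macrophage marker wells). Its partner Arnt was at 20.2 and 22.9 CPM (-0.17) and the feedback gene Tiparp at 118 and 115 CPM (0.04). The receptor's best known target Cyp1a1, and with it Cyp1a2, Ahrr and Nqo1, had 0 counts in all 60 cells, and Cyp1b1 held 23 counts in DiD+ cell 41. Of the 8 genes 3 reached 1 CPM, with 1 past 2-fold upward (33.3%, against 12.1% of all genes) and 0 downward (against 4.86%).

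Counts of several retinoid genes were concentrated in single DiD+ cells. Cell 41 held the most Rarb (120 counts), Stra6 (1137) and Crabp1 (3485) of the DiD+ cells, and was the only cell with a Rarres2 count (80). Cell 87 held Rarb (28), Aldh1a3 (60), Cyp26a1 (36) and Cyp26c1 (4). Cell 22 was the only cell with Adh1 (162) and Rarres1 (197) and held 27.3% of the DiD+ counts of Adh7.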
